A study of Mus musculus with 9 samples.

Results

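The genes described here encode 10 subunits of the clathrin adaptor complexes AP-1 and AP-2, 5 for each complex, out of 22255 genes in the deposited table. They were chosen by symbol because Ap1s2 had a lower level after AM6545 in these same samples, which raised the question of whether the other subunits shared that difference. The values of Ap1s2 between the groups are therefore a description and were not tested, while its 9 partners were picked by name and were tested with all other genes. RNA came from synaptoneurosomes, a fraction enriched in pinched-off synaptic endings, prepared from the hippocampus of Fmr1 KO mice of the C57Bl/6J strain. Of the 9 samples, 4 came from mice given AM6545 (replicates A, B, C and E) and 5 from mice given vehicle (replicates A to E), both sub-chronically. AM6545 is an antagonist of the cannabinoid receptor CB1 that enters the brain poorly. All samples are labelled Fmr1 KO, a model of fragile X syndrome, so no intact genotype is compared here, and the labels give no dose, duration, age or sex. Nothing in the labels ties a sample to 1 animal or to a pool, so p-values measure the spread between these samples, which may be technical in part.

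Adaptor complexes link the clathrin coat to membrane cargo. Each is a heterotetramer of a pair of large subunits, a medium subunit (mu) and a small subunit (sigma). AP-1 works at the trans-Golgi network and on endosomes, and AP-2 at the plasma membrane, where at synapses it takes part in the retrieval of vesicle proteins and in the internalisation of receptors. The large subunits of AP-1 are gamma (Ap1g1) and beta-1 (Ap1b1), its medium subunit is mu-1 (Ap1m1), and its small subunit is sigma-1, made from Ap1s1 (sigma-1A), Ap1s2 (sigma-1B) or Ap1s3. In AP-2 these places are taken by alpha (Ap2a1 or Ap2a2), beta-2 (Ap2b1), mu-2 (Ap2m1) and sigma-2 (Ap2s1). Mutations of the X-linked AP1S2 gene cause intellectual disability in humans.

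Whether a count belongs to 1 paralog or another bears on every value below, so coding sequences were compared within the related pairs, and the most alike stretch is shown for the closest pair, the alpha subunits of AP-2. Sequences are from GENCODE M21 transcripts (GRCm38), 5′ to 3′, with positions counted from the first base of the start codon; capitals mark bases that differ within the pair. The stretch covers bases 1273 to 1392 of Ap2a1 and 1270 to 1389 of Ap2a2:
Ap2a1: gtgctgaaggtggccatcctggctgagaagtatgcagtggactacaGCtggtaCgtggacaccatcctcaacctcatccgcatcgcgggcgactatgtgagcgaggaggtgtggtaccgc
Ap2a2: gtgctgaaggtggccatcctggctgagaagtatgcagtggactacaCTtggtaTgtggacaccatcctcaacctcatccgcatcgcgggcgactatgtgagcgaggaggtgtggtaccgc
These differed at 3 of 120 positions. Over all 2802 aligned coding bases the alpha genes were 77.3% identical, with a longest identical run of 68 bases. Reads that fall within that run cannot be assigned to 1 alpha gene by sequence alone. Ap1b1 and Ap2b1 were 76.2% identical, with a longest run of 25 bases. Ap1s2 and Ap1s1 were 72.2% identical over 471 aligned coding bases, with no identical run longer than 14 bases, and Ap1s2 and Ap1s3 were 72.8% identical with a longest run of 21 bases. In M21 no exon of another gene overlapped those of Ap1s1, Ap1s2, Ap2s1, Ap1b1, Ap1m1 or Ap2m1, whereas Ap2a1 overlapped Fuz, Ap2a2 overlapped Gm16982 and Ap1g1 overlapped Gm17344, each on the opposite strand. Because the strand setting is not given in the sources used here, reads of those partners cannot be told apart in these 3 genes. Ap2m1 also shares short near-identical stretches with transcripts of Spata31d1a, Pigv and Wdr33.

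Total counts ran from 17628922 to 27263393 per sample, and members had between 555 and 20456 counts in a sample, which leaves little counting error. Fmr1 transcripts were still counted in every sample, at 9.45 to 11.1 CPM (counts scaled to a common library size) after AM6545 and 10.3 to 13.3 CPM after vehicle, so its count alone does not check the genotype label. The 10 neuronal and synaptic markers were all detected in every sample, with a summed level of 6635 to 7458 CPM after AM6545 and 6023 to 8269 CPM after vehicle. Oligodendrocyte markers summed to 13139 to 18858 CPM and 10778 to 22534 CPM, astrocyte markers to 4643 to 4900 CPM and 3671 to 5604 CPM, microglial markers to 943 to 1201 CPM and 682 to 1114 CPM, and endothelial markers to 62.0 to 77.2 CPM and 50.3 to 106.8 CPM, in each case for AM6545 and vehicle. Every gene of these lists was counted in every sample. Choroid plexus markers varied most, from 60.9 to 937 CPM after AM6545 and from 48.0 to 4344.5 CPM after vehicle, with vehicle A at 4012 CPM and vehicle D at 4344.5 CPM; Aqp1 was the 1 gene of 8 at 0 in some sample. Pituitary markers summed to 1.11 to 2.02 CPM after AM6545 and reached 79.0 CPM in vehicle A, where vehicle B to E had 1.06 to 1.98 CPM, with 7 of 8 genes at 0 in some sample. Of the tested genes in these 7 marker lists, 0 passed between the groups, against 0.0% of all genes tested. Only 1 of 8 pituitary and 7 of 8 endothelial genes were tested.

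All 10 members passed the filter on low counts. Levels between genes were compared as CPM per kilobase of the median protein-coding transcript length, averaged over all 9 samples. On that scale Ap1s1 was the most abundant at 588, followed by Ap2m1 at 348, Ap2s1 at 203, Ap1m1 at 136 and Ap2a2 at 65.4. Ap1s2 came next at 38.4, then Ap1b1 at 34.2, Ap2a1 at 31.6, Ap2b1 at 16.4 and Ap1g1 at 11.6. With these median lengths the neighbours Ap1s2 and Ap1b1 stood in opposite order in the 2 groups, Ap1s2 having been chosen for its lower level. Ap1s2 was at 33.0 ± 3.61 and Ap1b1 at 38.5 ± 7.08 CPM per kilobase after AM6545 (SD, n = 4). After vehicle they were at 42.7 ± 3.52 and 30.7 ± 4.99 (SD, n = 5). Ap1b1 and Ap2a1 did not differ beyond their spread in either group. The order depends on the transcript taken for length, since several of these genes have short annotated fragments. With the length of the transcript that holds the longest coding region, Ap1s1 was at 293, Ap2m1 at 246, Ap2s1 at 147, Ap1m1 at 46.8 and Ap1s2 at 24.1 CPM per kilobase. Ap1s2 then stood below Ap2a2, Ap1b1 and Ap2a1. It was below Ap1b1 in both groups with those lengths, so the opposite order was particular to the median lengths. On both scales the sigma-1A transcript exceeded sigma-1B many times over, and the third sigma-1 gene, Ap1s3, had at most 5 counts in a sample.

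Ap1s2 (ENSMUSG00000031367.16, chromosome X) was lower after AM6545. Its level was 63.5, 61.7, 62.8 and 77.1 CPM in AM6545 A, B, C and E. In vehicle A to E it was 84.4, 76.3, 96.1, 84.9 and 86.3 CPM. AM6545 A, B and C lay below every vehicle sample, while AM6545 E lay just above vehicle B, so the groups overlapped by 1 sample. The means were 66.3 ± 7.23 CPM after AM6545 (SD, n = 4) and 85.6 ± 7.06 CPM after vehicle (SD, n = 5), which gives a ratio of 0.77 and a log2 fold change of -0.37. In bulk RNA of this kind, fewer synaptic endings that carry a transcript and less of the transcript in each cannot be told apart. RNA of other cell types is counted as well, as the marker sums show. Both limits hold for every level given here. Without AM6545 E the log2 fold change was -0.45, and without vehicle C it was -0.32. The transcripts of Ap1s2 have a GC content of 38.0%, lower than all but 1.16% of the genes tested, whereas the other members lie between 45.6% and 59.3%. The balance of GC-rich and GC-poor transcripts differed between libraries: the median log2 level of genes with 55.4% GC or more, minus that of genes with 46.2% or less, was 0.15, 0.26, 0.01 and -0.05 in AM6545 A, B, C and E. In vehicle A to E it was -0.08, 0.07, -0.25, -0.04 and -0.05. The highest value fell in the library with the least Ap1s2 and the lowest value in the library with the most. The libraries between did not all follow that order: AM6545 C was below vehicle B both in this value (0.01 against 0.07) and in Ap1s2 (62.8 against 76.3 CPM). With the trends of each library with transcript length and GC content removed, the log2 fold change of Ap1s2 was -0.21; removing the length trend alone left it at -0.36. Vehicle C, where Ap1s2 was highest, also had the highest sum of neuronal and synaptic markers (8269 CPM) and the lowest sums of astrocyte (3671 CPM), oligodendrocyte (10778 CPM) and microglial markers (682 CPM). Other libraries ran otherwise. AM6545 C had the next highest neuronal sum (7458 CPM) with Ap1s2 at 62.8 CPM, and vehicle A had the lowest (6023 CPM) with Ap1s2 at 84.4 CPM. The part of these markers in the Ap1s2 difference was not tested.

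**Figure D1:**
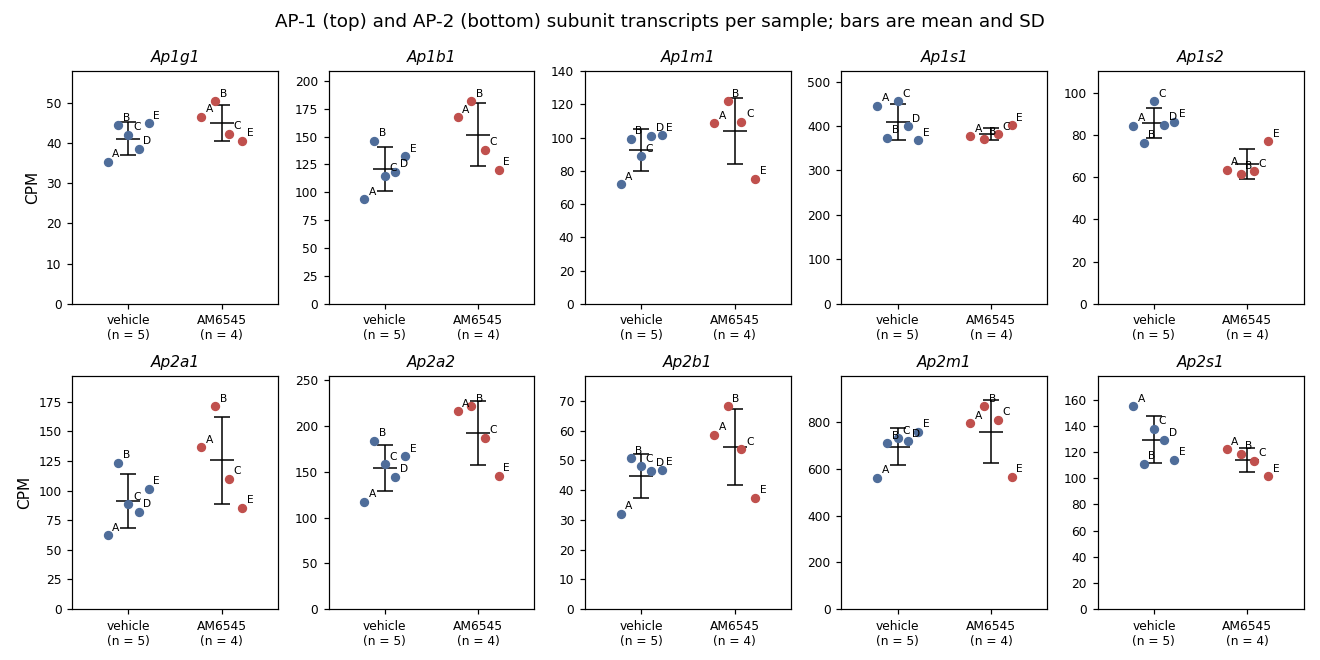
Level of each AP-1 (top row) and AP-2 (bottom row) subunit transcript in CPM, on axes that start at 0, with 1 point per sample marked by its replicate letter, and bars for the mean and SD of vehicle (n = 5) and AM6545 (n = 4). AM6545 A, B and C lie at 61.7 to 63.5 CPM for Ap1s2, below the vehicle range of 76.3 to 96.1 CPM, while for the large and medium subunits vehicle A and AM6545 E are the lowest samples of their groups.

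The other sigma-1 transcript, Ap1s1 (ENSMUSG00000004849.15, chromosome 5), had a log2 fold change near 0. It was at 377, 369.7, 382 and 401 CPM in AM6545 A, B, C and E and at 446, 373, 456, 399 and 368 CPM in vehicle A to E. The AM6545 samples all lay inside the vehicle range. The means were 382 ± 13.5 CPM (SD, n = 4) and 408 ± 40.7 CPM (SD, n = 5). On the log2 scale the fold change was -0.09 (95% interval -0.31 to 0.12, edgeR quasi-likelihood adjusted p = 0.789). It was -0.05 without vehicle C, -0.13 without vehicle E and 0.0024 with the length trend of each library removed. Because both genes were scaled by the same library factors, their balance within a sample does not depend on the scaling. Per kilobase of transcript, Ap1s2 made up 5.36%, 5.32%, 5.25% and 6.07% of the sum of Ap1s1 and Ap1s2 in AM6545 A, B, C and E. In vehicle A to E its share was 5.99%, 6.44%, 6.63%, 6.69% and 7.32%. The share was below every vehicle value in AM6545 A, B and C and between vehicle A and vehicle B in AM6545 E. Since Ap1s2 was chosen for its lower level in these samples, a lower share follows in part from that choice. The share is a description and was not tested. Its mean was 5.50% ± 0.384 (SD, n = 4) against 6.61% ± 0.480 (SD, n = 5), or 6.82% ± 0.468 against 8.17% ± 0.583 with the lengths of the longest-coding transcripts. Ap1s1 transcripts have 54.7% GC against 38.0% for Ap1s2, and the part of GC in this share was not tested.

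The question of a shared decrease was then put to the 9 other subunits. By edgeR's quasi-likelihood test with Benjamini-Hochberg adjustment over all 14512 genes tested, 0 of the 9 passed an adjusted p of 0.05 (0.653 to 0.794), against 0.0% of all genes tested. DESeq2 and limma-voom also called 0 of the 9 and 0 genes in all. Only 2 of the 9, both small subunits, had a log2 fold change below 0, where 51.8% of all genes tested did, and the 7 large and medium subunits were all above 0. The median log2 fold change of the 9 was 0.17, beside -0.01 over all genes tested. At an unadjusted p under 0.05 in the same test there were 3 of the 9, all higher (Ap1b1, Ap2a1 and Ap2a2), where 7.21% of genes tested reached that level, 3.03% higher and 4.18% lower. That count was 0 without AM6545 A, AM6545 B, vehicle A, vehicle C or vehicle D, each left out alone, 2 without AM6545 C, 5 without AM6545 E, and 5 with vehicle A and AM6545 E left out together. The difference between Ap1s2 and the other subunits was not tested, since Ap1s2 had been picked for its own difference. In 0 of the 10 members were the groups apart without overlap, against 1.45% of genes tested.

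Among the large subunits, Ap2a1 (ENSMUSG00000060279.15, chromosome 7), an alpha subunit of AP-2 that binds membrane lipids and cargo, had the widest range. It was at 136.5, 171, 109.7 and 85.4 CPM in AM6545 A, B, C and E and at 62.3, 124, 88.5, 81.9 and 101 CPM in vehicle A to E. AM6545 A and B lay above every vehicle sample, and AM6545 E lay among the lower vehicle samples. The means were 126 ± 36.7 CPM (SD, n = 4) and 91.5 ± 22.8 CPM (SD, n = 5), with a fitted log2 fold change of 0.46 (95% interval 0.03 to 0.88, edgeR adjusted p = 0.653). Without AM6545 B that value was 0.27, and without AM6545 E it was 0.60. Ap2a1 transcripts have 59.3% GC, above 92.4% of the genes tested, and with length and GC trends removed the value was 0.33.

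Ap2a2 (ENSMUSG00000002957.12, chromosome 7), the other alpha subunit, was at 216, 221, 187 and 145 CPM in AM6545 A, B, C and E. In vehicle A to E it was 117, 184, 158, 144 and 167 CPM. AM6545 A, B and C exceeded every vehicle sample, and AM6545 E did not. Its log2 fold change was 0.32 (95% interval 0.01 to 0.63, edgeR adjusted p = 0.653), and 0.28 with length and GC trends removed. Ap1b1 (ENSMUSG00000009090.18, chromosome 11), the beta-1 subunit that binds clathrin, was at 167, 182, 138 and 120 CPM in AM6545 A, B, C and E and at 93.8, 146, 115, 118 and 132 CPM in vehicle A to E. AM6545 A and B exceeded every vehicle sample. Its log2 fold change was 0.33 (95% interval 0.02 to 0.63, edgeR adjusted p = 0.653), and 0.24 with length and GC trends removed.

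The other 2 large subunits were less abundant. Ap2b1 (ENSMUSG00000035152.15, chromosome 11), the clathrin-binding beta-2 subunit, was at 58.7, 68.2, 53.8 and 37.5 CPM in AM6545 A, B, C and E. In vehicle A to E it was 32.1, 50.8, 48.1, 46.5 and 46.8 CPM. As for Ap2a2, AM6545 A, B and C exceeded every vehicle sample and AM6545 E did not. The log2 fold change was 0.28 (95% interval -0.06 to 0.63, edgeR adjusted p = 0.662), and it was 0.15 without AM6545 B and 0.42 without AM6545 E. Ap1g1 (ENSMUSG00000031731.17, chromosome 8), the gamma subunit that recruits accessory proteins, ran from 40.5 to 50.4 CPM after AM6545 and from 35.3 to 44.9 CPM after vehicle, a log2 fold change of 0.13 (95% interval -0.09 to 0.35, edgeR adjusted p = 0.720) that was 0.07 without AM6545 B.

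The medium subunits recognise tyrosine-based sorting signals in cargo. Ap2m1 (ENSMUSG00000022841.16, chromosome 16) was at 795, 867, 809 and 565 CPM in AM6545 A, B, C and E and at 560.3, 709, 731, 717 and 758 CPM in vehicle A to E. AM6545 A, B and C were above every vehicle sample, whereas AM6545 E was level with vehicle A. Its log2 fold change was 0.13 (95% interval -0.16 to 0.42, edgeR adjusted p = 0.794), 0.25 without AM6545 E and 0.06 without AM6545 B. Ap1m1 (ENSMUSG00000003033.16, chromosome 8) was at 108.6, 122, 109.6 and 75.2 CPM in AM6545 A, B, C and E, with vehicle samples between 71.8 and 101 CPM. Its pattern over the samples was that of Ap2m1, with a log2 fold change of 0.17 (95% interval -0.13 to 0.47, edgeR adjusted p = 0.731) that was 0.29 without AM6545 E and 0.08 without AM6545 B.

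The sigma-2 subunit Ap2s1 (ENSMUSG00000008036.12, chromosome 7), part of the AP-2 site for dileucine sorting signals, had the second lowest log2 fold change. It was at 122, 119, 114 and 101.5 CPM in AM6545 A, B, C and E. In vehicle A to E it was 155, 111, 138, 129 and 114 CPM. All AM6545 samples were below the vehicle mean, but only AM6545 E was below every vehicle sample. The log2 fold change was -0.18 (95% interval -0.42 to 0.05, edgeR adjusted p = 0.662). It was -0.11 without vehicle A, -0.06 without vehicle A and AM6545 E, -0.07 by limma-voom and -0.08 with the length trend of each library removed. It was -0.22 without AM6545 A, vehicle B or vehicle E, each left out alone, and -0.16 with length and GC trends removed. Ap2s1 transcripts have a median length of 604 bases, and only 3.44% of the genes tested have shorter ones.

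The large and medium subunits shared an order over the libraries. For 7 of the 7 large and medium members, AM6545 B was the highest of all 9 samples, vehicle A was the lowest of all 9, and AM6545 E was the lowest of the AM6545 samples. The median of these 7 genes, on a log2 scale relative to each gene's own mean over the samples, was 0.29, 0.40, 0.15 and -0.26 in AM6545 A, B, C and E and -0.50, 0.08, -0.09, -0.14 and 0.00 in vehicle A to E. Ap1s2 ran otherwise, at -0.26, -0.30, -0.28 and 0.02 in the AM6545 samples and 0.15, 0.00, 0.34, 0.16 and 0.18 in vehicle. The median log2 level of genes with transcripts up to 1318 bases, minus that of genes with transcripts from 3523 bases, was 0.15 in vehicle A, 0.14 in vehicle D and -0.19 in AM6545 E. The other libraries lay between -0.06 and 0.05. Vehicle A had the lowest sum of neuronal and synaptic markers of all samples (6023 CPM), the highest of oligodendrocyte markers (22534 CPM) and high pituitary and choroid plexus sums. Within the AM6545 group, E had the lowest neuronal sum (6635 CPM) and the highest oligodendrocyte sum (18858 CPM). The shared order did not follow the neuronal sum in every library. AM6545 B, the highest for these 7 genes, had a neuronal sum of 6826 CPM, below AM6545 A and C. Vehicle C had the highest neuronal sum (8269 CPM), with a median of -0.09 for these genes. The part of these markers, of length and of GC in the shared order was not tested.

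**Figure D2:**
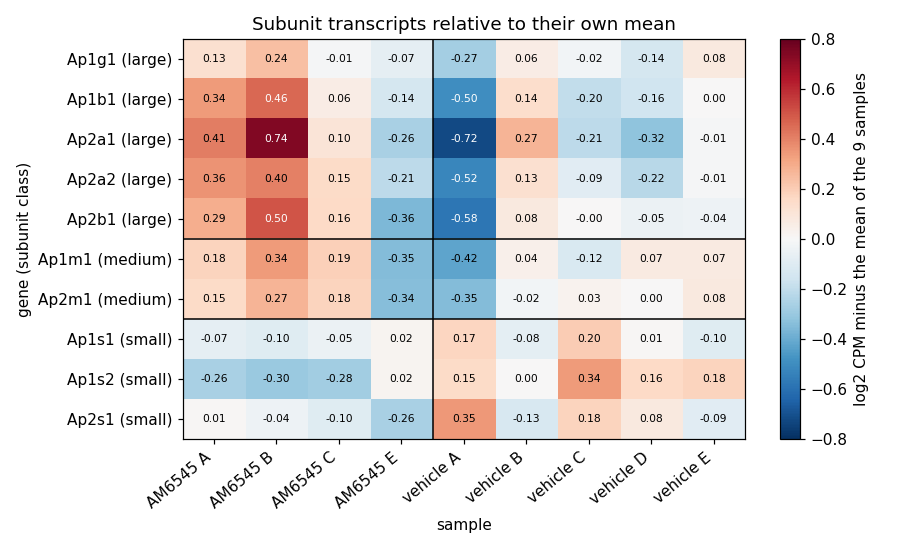
Log2 CPM of each member minus its mean over the 9 samples, with samples in columns, genes in rows and colour for the difference (red above, blue below the gene's own mean). The 7 large and medium subunits share a high AM6545 B column and a low vehicle A column, while Ap1s2 is at -0.26 to -0.30 in AM6545 A, B and C.

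The 3 small members were below 0 and the large and medium ones above, but Ap1s2 was among the small ones by choice. The intervals of the other small members, Ap1s1 and Ap2s1, include 0. The same size classes were then read in AP-3, AP-4 and AP-5. These complexes sort cargo to lysosome-related organelles and synaptic vesicles (AP-3), from the trans-Golgi network (AP-4) and on late endosomes (AP-5). This reading was chosen after the values of AP-1 and AP-2 had been seen, so it has no test. Their 7 large subunits had log2 fold changes of 0.08 to 0.48 (median 0.24), all above 0, whereas the scarce large subunit Ap1g2 of AP-1 was at -0.08 (SE 0.27). Of 4 medium subunits 2 were above 0 and 2 below (-0.16 to 0.12). Of 4 small subunits 3 were below 0 (-0.27 to 0.01). Over all genes tested, 51.8% were below 0. Median transcript lengths were 2692 to 4805 bases for these large subunits and 896 to 5813 bases for the small ones, so length differs between the classes but does not separate them fully. The classes overlapped in GC content, at 42.1% to 61.6% for the large and 41.8% to 56.6% for the small subunits of AP-3 to AP-5. Within classes, fold change went with GC in part. The lowest small subunits, Ap1s2 (-0.37) and Ap3s1 (-0.27), had the least GC, at 38.0% and 41.8%. The medium Ap5m1 and Ap3m1, both below 0, had 39.6% and 44.4%. Of the large ones, Ap5b1 (0.48) had 61.6% and Ap4e1 (0.08) 42.1%. Not all did so: Ap5z1 (0.21) had 59.6% and Ap2s1 (-0.18) 57.3%. The part of GC was not tested.

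**Figure D3:**
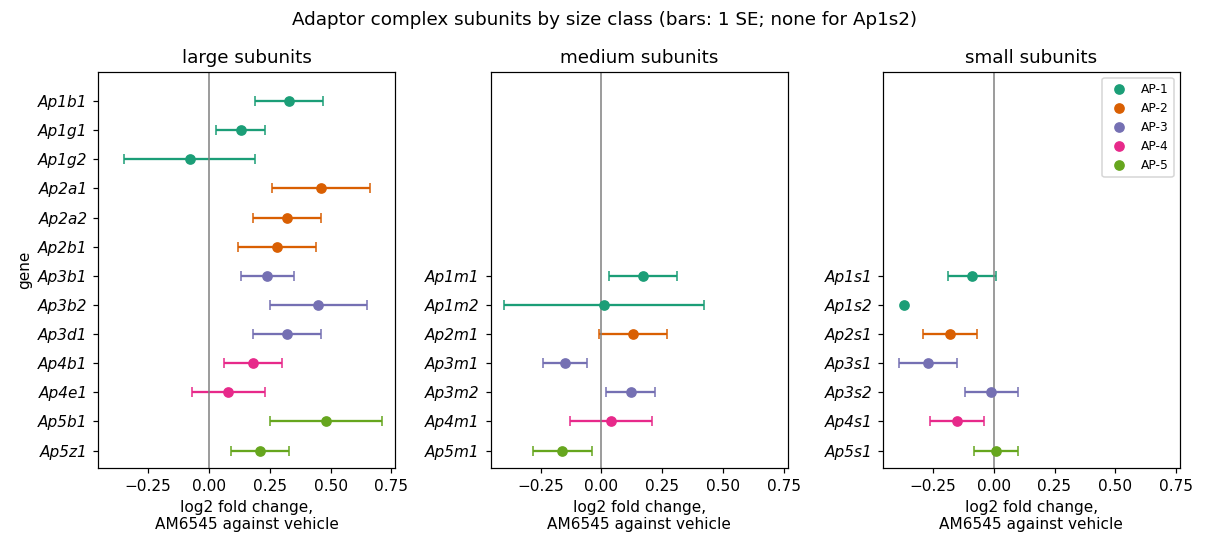
Log2 fold change of AM6545 against vehicle (horizontal axis) with 1 SE (none for Ap1s2, which was chosen for its difference) for the subunits of AP-1 to AP-5, in panels for large, medium and small subunits and coloured by complex. Of the large subunits 12 are above 0, from 0.08 to 0.48, and the scarce Ap1g2 is at -0.08; Ap1s2, at -0.37, is the lowest of the small ones, and no gene of the table passed the adjusted threshold.

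Other adaptor complexes and the wider clathrin pathway were read from 9 lists with 69 genes, of which 67 were tested. By edgeR's quasi-likelihood test 0 of the 67 passed the adjusted threshold. At an unadjusted p under 0.05, 4 were higher and 1 lower, close to the 7.21% of all genes tested that reached that level. The median log2 fold change was 0.08 beside -0.01 for all genes tested. Of the 67, 18 were below 0, where 51.8% of all genes tested were, and the direction counts of the lists below were not tested. In AP-3, 0 of 7 passed. Its beta-3 and delta subunits were the 3 higher at an unadjusted p under 0.05: the neuronal Ap3b2, at 169 ± 52.7 CPM after AM6545 (SD, n = 4) and 124 ± 25.4 CPM after vehicle (SD, n = 5), had a log2 fold change of 0.45, Ap3d1 of 0.32 and Ap3b1 of 0.24. The sigma-3A gene Ap3s1 was the 1 lower, with 66.4 ± 7.65 CPM after AM6545 (SD, n = 4) and 80.1 ± 13.1 CPM after vehicle (SD, n = 5). Its log2 fold change was -0.27. The adjusted p of each of these 4 was 0.653.

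The remaining adaptor complexes gave smaller numbers of transcripts. In AP-4, 0 of 4 passed, from Ap4s1 at -0.15 to Ap4b1 at 0.18. In AP-5, 0 of 4 passed, from the medium subunit Ap5m1 at -0.16 to the large subunit Ap5b1 at 0.48, which rested on levels of 2.22 to 4.15 CPM after AM6545 and 1.5 to 2.82 CPM after vehicle. The other AP-1 genes were scarce: Ap1g2 (gamma-2) was at 1.01 ± 0.230 and 1.07 ± 0.216 CPM and Ap1m2 (the epithelial mu-1B) at 0.460 ± 0.136 and 0.452 ± 0.218 CPM after AM6545 (SD, n = 4) and vehicle (SD, n = 5). Their log2 fold changes were -0.08 and 0.01.

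For the coat itself, of the 3 clathrin chains, 0 passed, with the heavy chain Cltc at a log2 fold change of 0.22 and the light chains Clta and Cltb at 0.08 and 0.01. Cltc was at 326 ± 68.0 CPM after AM6545 (SD, n = 4) and 280.3 ± 31.3 CPM after vehicle (SD, n = 5). Among 21 other clathrin adaptors tested, 16 were above 0 and 5 below, beside 51.8% below over all genes tested. Of the 21, 0 passed and the median was 0.12. They ran from the cargo adaptor Dab2 at -0.24 to Fcho1, an early organiser of coated pits, at 0.31 (29.2 ± 4.72 CPM, n = 4, against 23.5 ± 3.48 CPM, n = 5, SD). Fcho1 was the 1 gene of that list at an unadjusted p under 0.05. Ston1 was not tested, with at most 8 counts in a sample.

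Of 11 genes for scission and uncoating, which release the vesicle and strip its coat, 10 were above 0 and 0 passed, with a median of 0.19. Only 1 was below 0, beside 51.8% of all genes tested. They ran from the endophilin gene Sh3gl3 at -0.18 to dynamin-1, Dnm1, at 0.36 (417 ± 115.5 CPM, n = 4, against 324 ± 78.2 CPM, n = 5, SD). Of 10 genes for assembly, accessory proteins and kinases 5 were above 0, 5 below and 0 passed, from Ncoa7 at -0.16 to the gamma-adaptin partner Synrg at 0.23. Aagab, a chaperone in the assembly of AP-1 and AP-2, was at 78.4 ± 2.20 and 77.4 ± 2.39 CPM after AM6545 (SD, n = 4) and vehicle (SD, n = 5), a log2 fold change of 0.02. Of Arf1, the GTPase that recruits AP-1 to membranes, and 4 related genes, 0 passed, from Arf1 at -0.05 to its exchange factor Gbf1 at 0.23.

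The genes whose profile over the 9 samples was closest to that of Ap1s2 were not adaptor subunits. Likeness was the root mean square difference of log2 CPM, each gene relative to its own mean, over the 9 samples and 9483 other genes with a mean of at least 10 CPM. The 5 closest were Carnmt1 (0.075), which encodes an enzyme that methylates carnosine, Id2 (0.076), an inhibitor of helix-loop-helix transcription factors, Scai (0.085), a suppressor of the coactivator MRTF, Hnmt (0.090), which inactivates histamine by methylation, and Pole4 (0.091), an accessory subunit of DNA polymerase epsilon. Because the 9 samples include both groups, these genes share the lower level after AM6545 by choice. Their transcripts had 38.1% to 46.9% GC, beside a median of 50.9% over the genes tested. Among the members, Ap1s1 stood closest to Ap1s2, at rank 810 of 9483 (0.169), followed by Ap2s1 at rank 2378 (0.215), and Ap2a1 was the farthest, at rank 9430 (0.591). Differences were not scaled for how widely each gene varied. A nearly flat gene can therefore rank as close, and a widely varying gene as far.

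**Figure D4:**
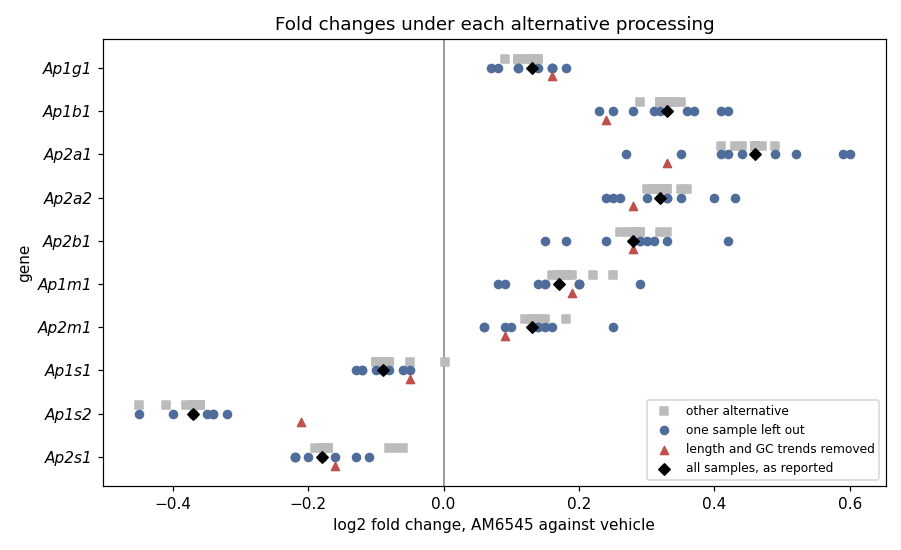
Log2 fold change of each member (horizontal axis) as reported (diamonds), with 1 sample left out (circles), with length and GC trends removed (triangles) and under the other alternatives (squares). Values of Ap1s2 stay between -0.45 and -0.32 in all of these but the GC correction, at -0.21, and the 7 large and medium subunits stay above 0.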

How the data were processed

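RNA of 9 hippocampal synaptoneurosome samples was sequenced from low-input libraries, per the labels' protocols. The authors deposited estimated counts per gene, of which 56.6% to 69.4% per sample are whole numbers; Salmon 1.3, DESeq2 1.30 and the builds GRCm39 and mm10 are named, with no roles, per the submitters' processing notes. The strand setting and annotation release are not given in the sources used here, so no coordinates are printed. Symbols were matched by gene identifier without version for 22155 of 22255 rows. All 36 pairs of libraries differed by more than sampling noise (chi-square over its degrees of freedom at least 8.94), so none was counted as a duplicate.

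Estimated counts were rounded. Genes were filtered with filterByExpr, which left 14512, scaled with TMM and tested in R 4.3.3 with the quasi-likelihood method of edgeR 4.0.16. Benjamini-Hochberg adjusted p-values were called at 0.05. The SE is the absolute log2 fold change over the square root of F, and intervals use the moderated degrees of freedom. Alternatives used DESeq2 1.42.0, limma 3.58.1, other size factors, filters and trends. Transcript length and GC content are medians over protein-coding transcripts of GENCODE M21, and similar stretches were searched with blastn 2.17.0. The overlap of Ap2b1 with other genes is not reported here.

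The members and lists were chosen with earlier results of these data known. Named genes were all members, in each list the genes with the highest and lowest log2 fold change and any at an unadjusted p under 0.05, and the 5 profiles most like Ap1s2. Aagab, Ap1s3, Ston1 and Clta were named after their values were seen, as were Ap3m1, Ap4e1 and Ap5z1 in the passage on GC content.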

Additional observations from a re-analysis of the deposited data

Results flagged for a closer look

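For each of the 10 members, the gap between the most extreme sample of a group and its nearest neighbour was divided by the span of that group. Of 20 groups of values 3 exceeded the 95% critical value, where chance gives about 1. Ap1s2 was at 77.1 CPM in AM6545 E and at 61.7 to 63.5 CPM in the other AM6545 samples (ratio 0.883). Ap2b1 was at 32.1 CPM in vehicle A and at 46.5 to 50.8 CPM in the other vehicle samples (ratio 0.774). Ap2m1 was at 560.3 CPM in vehicle A and at 709 to 758 CPM in the other vehicle samples (ratio 0.75). The last 2 are the same library, so they are not independent.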

How the results depend on the processing

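Under 20 alternatives, 0 of the 9 subunits besides Ap1s2 and 0 of the 67 genes of the other lists passed the adjusted threshold. The count over all genes was 0 except that it ran from 0 to 1 with 1 sample left out (1 without AM6545 A). Ap1s2 was chosen for its lower level in these same samples, so refits of them do not test its difference. Its log2 fold change was below 0 throughout. It ran from -0.45 to -0.32 with 1 sample left out and was -0.21 with length and GC trends removed (a setting added once the data had been seen). The number of the 9 at an unadjusted p under 0.05 ran from 0 to 5 with 1 sample left out and was 5 with vehicle A and AM6545 E left out together, which was added at the same stage, and 1 with length and GC trends removed. The number of the 9 with a lower mean was 1 in place of 2 with the length trend removed, where the log2 fold change of Ap1s1 was 0.0024; the cause was not tested. Over all genes, the count at an unadjusted p under 0.05 was 1047, between 496 without vehicle A and 1848 without AM6545 E. With the title letter as a replicate block over the 4 shared letters, Ap1s2 was at -0.37 and 1 of the 9 had an unadjusted p under 0.05, with 769 genes in all against 866 for the same samples without the block. Deviations of same-letter samples had correlations of -0.02, 0.04, 0.34 and -0.02, and only AM6545 C correlated best with its own letter, so the letters were not taken as pairs. Members had at least 555 counts in every sample; what limits the number of calls was not tested.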
